A study of Mus musculus with 2 samples.

Results

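The cells described here are embryonic mouse retinal cells that carried RNA of Dlx1, Dlx2 or Gal together with Atoh7, and that lacked the RNAs marking their nearest neighbours in differentiation. They were selected on measured UMIs, the molecules counted per gene in each droplet barcode. A member had at least 2 UMIs summed over Dlx1, Dlx2 and Gal and at least 1 of Atoh7, no UMI of Neurog2, Otx2 or Ptf1a, fewer than 3 of Isl1, fewer than 10 of Sncg, and at most 2 of Col3a1 plus Col1a2. Barcodes needed 500 or more genes and no more than 10% of their UMIs from mitochondrial genes. The rule found 142 of 3512 such cells in the albino library and 242 of 5883 in the pigmented library, 384 of 9395 in all. They are called precursors below. Nothing measured here follows a cell through time, so "transitional" is a working name for a place between Neurog2 positive cells and ganglion cells. The gates themselves set the cells apart from both, and several genes below were higher in precursors than in both.

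The study set albino against pigmented peripheral retina at embryonic day 13.5 by droplet 3′ RNA sequencing. The albino library came from Swizz ICR mice and the pigmented library from mice whose strain label reads Tyrc2j, each a single pool of optic cups from 3 embryos. Both carried α-Cre, which a Pax6 enhancer drives in distal retina, and a TdTomato reporter, and sorting for TdTomato selected the cells. Tyrc2j is also the name of a tyrosinase allele known from albino mice, so that label goes against the library's title, and the titles were followed. With 1 library for each background there is no replicate: pigmentation, strain, pool, the sexes in the pool and the library cannot be told apart, no test was run, and each interval below is an exact 95% interval that covers counting error only.

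Retinal neurons are born from cycling progenitors in which Notch signalling, through the DNA-binding partner Rbpj and the Hes and Hey repressors, holds back differentiation. Cells leaving that state express proneural bHLH factors such as Neurog2 and Atoh7, and Notch ligands of the Delta family that signal to their neighbours; Atoh7 is required for retinal ganglion cells. Dlx1 and Dlx2 are homeodomain factors needed for the normal number of ganglion cells, and Gal encodes the neuropeptide galanin. Insm1 and Insm2 are zinc finger factors of newborn neurons, and Isl1, Pou4f2 and Sncg mark ganglion cells.

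The 250 bases before the RefSeq start of 3 genes are printed here. Hes5, a Notch effector gene, and Lfng, the gene of a Notch-modifying enzyme, were higher in precursors than in Neurog2 positive cells. The third, Dlx2, was used by the rule. All 3 are RefSeq sequences of build GRCm38.p6, written 5′ to 3′ in the direction of the gene. In Hes5 (chr4:154960673-154960922, plus strand) and Lfng (chr5:140607091-140607340, plus strand) capitals mark the core TGGGAA of an Rbpj site, read on both strands. In Dlx2 (chr2:71546755-71547004, minus strand) capitals mark the E-box CANNTG, the letters that bHLH factors bind, also read on both strands.
Hes5: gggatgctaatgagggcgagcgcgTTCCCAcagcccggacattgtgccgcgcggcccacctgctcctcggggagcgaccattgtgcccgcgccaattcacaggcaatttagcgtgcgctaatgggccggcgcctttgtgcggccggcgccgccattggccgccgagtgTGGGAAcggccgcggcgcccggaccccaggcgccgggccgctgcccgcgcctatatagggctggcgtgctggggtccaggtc
Lfng: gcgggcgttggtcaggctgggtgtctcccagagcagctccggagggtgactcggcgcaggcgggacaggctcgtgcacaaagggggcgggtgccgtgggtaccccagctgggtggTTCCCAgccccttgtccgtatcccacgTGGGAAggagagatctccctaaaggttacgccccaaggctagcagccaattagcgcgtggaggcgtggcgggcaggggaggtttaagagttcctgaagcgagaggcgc
Dlx2: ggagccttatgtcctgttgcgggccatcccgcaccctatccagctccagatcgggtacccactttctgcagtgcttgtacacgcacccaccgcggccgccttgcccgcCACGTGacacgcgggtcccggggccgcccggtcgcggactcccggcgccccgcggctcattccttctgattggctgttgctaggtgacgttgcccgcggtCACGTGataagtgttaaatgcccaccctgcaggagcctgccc

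The TGGGAA core began 226 and 82 bases before the start of Hes5 and 135 and 108 bases before that of Lfng. GENCODE places the start of Lfng earlier than RefSeq, so that the last 21 bases of its window lie inside the gene. An E-box began 194 bases before the start of Hes5 and 146 and 112 bases before that of Lfng, and the last 2 bases of the nearer one overlap the second core. Among the windows not printed, TGGGAA was found once before Gal and once before Atoh7, whose window has 134 bases inside the gene by GENCODE. Of 32851 promoter windows of this length in the table, 21.6% held TGGGAA and 66.2% held CANNTG, so the 2 E-boxes of Dlx2 are letters found in most promoters. Of 22 genes looked up, 15 were in the table. A match is a description of letters, not a binding site.

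Gene positions are those of GENCODE M21 on GRCm38, the assembly that mm10 names. Dlx1 (chr2:71528113-71533981) and Dlx2 (chr2:71543408-71546754) are neighbours on opposite strands, Gal lies at chr19:3409915-3414544, Atoh7 at chr10:63099651-63101279, Insm2 at chr12:55599427-55602086, Hes5 at chr4:154960923-154962371 and Lfng at chr5:140607320-140615545. Exons of 33 of the 99 genes looked up overlap exons of another gene, among them Dlx1, Hes5, Gadd45a, Ccnd1, Ccnd2, Neurod1, Sfrp2, Notch1, Phlda1, Cp and Mest, and Nefl and Nefm overlap each other. No source used here says if reads were counted by strand.

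Depth was similar. The precursors held a median of 9764.5 UMIs per cell in the albino library and 9068 in the pigmented library, against 11239 and 10448 in all kept cells, and 1431607 and 2344575 UMIs in sum. The libraries shared 8 cell barcodes, none of a precursor. Scrublet called 0 of the albino precursors and 8 of the pigmented precursors doublets (3.31%); its 6 calls in the whole albino library, 0.171% of cells, are too few to have worked. Of the albino precursors 133 held Xist and no Y-linked UMI, of the pigmented precursors 63, and 10 pigmented precursors held both (4.13%, against 3.52% of all kept pigmented cells).

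The gates left most members far from their limits for Atoh7 and near them for Dlx. Atoh7 had a median of 80 UMIs in albino precursors and 70 in pigmented precursors, and the members with a single Atoh7 UMI numbered 2 and 1. Dlx1 plus Dlx2 had a median of 4 UMIs in each library and at most 17. Gal spread far more widely, with a median of 2 UMIs in albino and 5.5 in pigmented precursors and highest values of 252 and 242. Among collagen-rich mesenchyme cells 20.6% of albino and 26.0% of pigmented cells held an Atoh7 UMI, and 13.7% and 15.0% held 2 or more. The highest Atoh7 counts among them were 201 and 73 UMIs. What free RNA in droplets and doublets contribute to these counts was not tested. Of the same cells 9.80% and 8.09% held 2 or more of Dlx1, Dlx2 and Gal, at median depths of 14161 and 14331 UMIs. These cells are no background for Dlx, since other Dlx genes and the antisense gene summed to 40.0 and 56.9 CPM in them, against 3.43 and 5.27 CPM in all kept cells.

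Most precursors carried both kinds of RNA. UMIs of Dlx1 or Dlx2 and of Gal were found together in 77 albino precursors (54.2%, 45.7 to 62.6) and 172 pigmented precursors (71.1%, 64.9 to 76.7). Dlx without Gal was found in 54 albino precursors (38.0%, 30.02 to 46.5) and 53 pigmented precursors (21.9%, 16.9 to 27.6), so the intervals of the libraries do not overlap for either route. Gal without Dlx was the rare route, with 11 and 17 cells (7.75% and 7.02%). The UMIs that make these routes are those of the rule and carry no test.

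**Figure D1:**
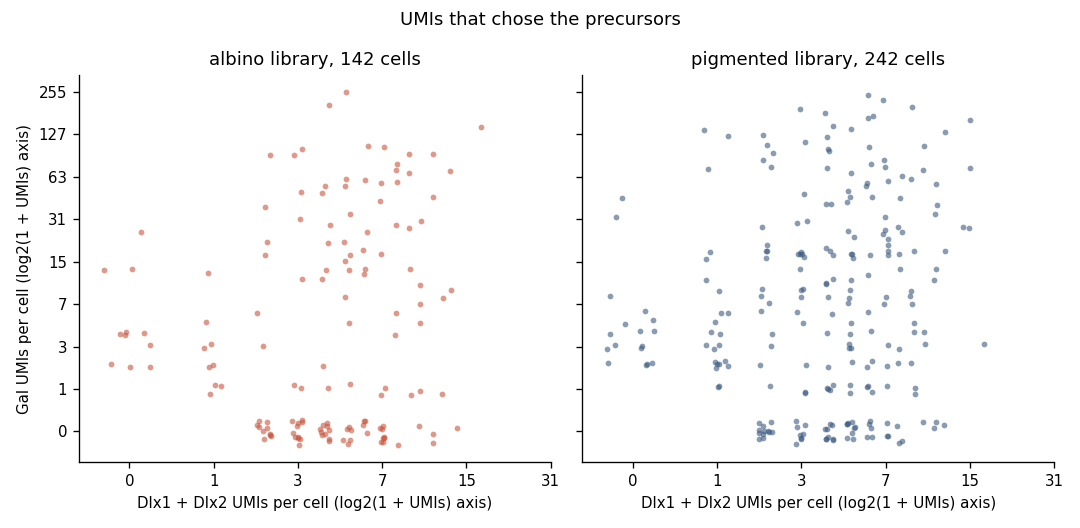
Each point is a precursor, placed by its Dlx1 plus Dlx2 UMIs (horizontal) and its Gal UMIs (vertical), both on log2(1 + UMIs) axes with a small random shift, in the albino library (left, 142 cells) and the pigmented library (right, 242 cells). Dlx counts end at 17 in both libraries while Gal counts reach 252 and 242, and the row at 0 Gal holds 54 albino and 53 pigmented cells.

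Cells with Dlx and no Gal carried more RNA of progenitor and early neurogenic genes than cells with both. Ccnd1, the D-type cyclin of retinal progenitors, stood at 713 CPM (counts per 1e6, UMIs of the gene over all UMIs of the summed cells) in Dlx only cells against 386 CPM in cells with both in the albino library, and at 847 against 347 CPM in the pigmented library. Neurod1, a bHLH factor of photoreceptor and amacrine precursors, stood at 109 against 18.7 CPM and at 136 against 24.8 CPM. Both were higher in Dlx only cells of each library. Insm2 ran the other way, at 127 against 199 CPM and 121 against 224 CPM, as did the summed G2/M genes, at 4097 against 5659.8 CPM and 2682 against 4751 CPM.

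The 11 and 17 cells with Gal and no Dlx stood apart from the rest. Atoh7 was at 2528 CPM in the albino and 2832 CPM in the pigmented cells of this route, far below the 8158 and 8039 CPM of cells with both. Stmn2 and Gap43, cytoskeletal genes of growing axons, were at 869 and 322 CPM in the albino cells of this route, against 273 and 18.7 CPM in cells with both. In the pigmented library they were at 983 and 201 CPM, against 328 and 21.9 CPM. The albino cells of this route had a median of 3172 UMIs, the pigmented ones 8083; what depth and free RNA contribute to this route was not tested.

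Several genes outside the rule followed the number of choosing UMIs. By the sum of Dlx1, Dlx2 and Gal, 16 albino and 18 pigmented precursors had 2 UMIs, 40 and 56 had 3 to 5, 22 and 47 had 6 to 10, and 64 and 121 had more than 10. Insm2 climbed over these bins from 81.9 through 127 and 173 to 199 CPM in the albino library, and from 56.3 through 118 and 184 to 241 CPM in the pigmented library. Sox11, a factor of young neurons, went over the same bins from 769.6 to 1378 CPM and from 642 to 1401 CPM. Ccnd1 ran downwards at the top end, with 860.3, 582 and 300.1 CPM in the upper 3 albino bins and 902, 442 and 269.8 CPM in the pigmented ones. Stmn2 was highest in the bin of 2 UMIs, at 696 and 805 CPM, which rests on 16 and 18 cells.

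Just outside the rule, 25 albino and 54 pigmented cells passed every other gate with a single Dlx or Gal UMI. Their levels of Atoh7 and Gadd45a lay between those of precursors with 2 such UMIs and of cells with none. Atoh7 was at 5134 and 3965 CPM in albino and pigmented precursors with 2 choosing UMIs, against 2249 and 2519.6 CPM in cells with 1 and 577 and 482 CPM in cells with 0. Gadd45a, a growth arrest and stress response gene, was at 958 and 1138 CPM, against 411 and 449 CPM and 127 and 130.03 CPM.

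**Figure D2:**
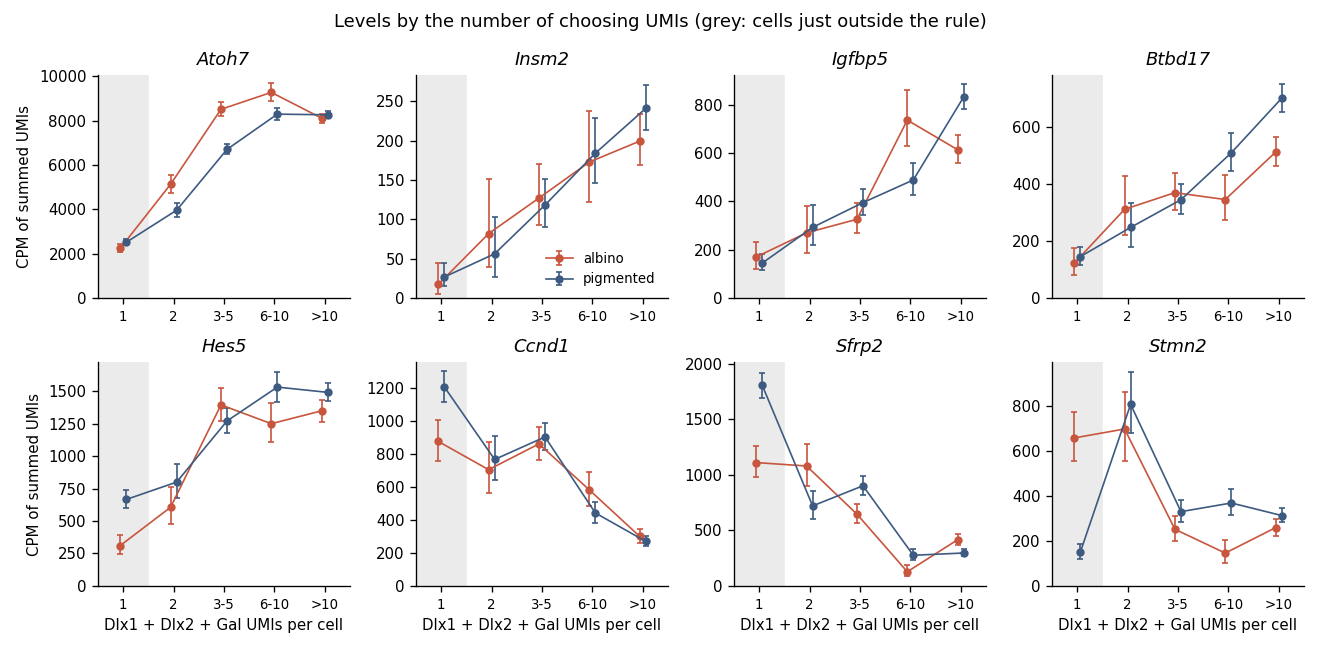
Level of 8 genes (vertical axes, CPM of summed UMIs) in cells binned by their Dlx1 plus Dlx2 plus Gal UMIs (horizontal axes), with exact 95% counting intervals, for the albino library (red) and the pigmented library (blue); the grey band holds cells with 1 UMI, outside the rule. Insm2 climbs to 199 and 241 CPM in the last bin, while Ccnd1 ends at 300.1 and 269.8 CPM.

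The share of precursors differed between the libraries by less than its counting error. They made up 4.04% of kept albino cells (3.42 to 4.75) and 4.11% of kept pigmented cells (3.62 to 4.65), a ratio of 0.983 (0.793 to 1.21). Their neighbours did not keep the same shares. Neurog2 positive cells, gated like the precursors but with at least 1 Neurog2 UMI and any Dlx or Gal, were 3.64% of albino and 5.35% of pigmented cells (ratio 0.681, 0.550 to 0.839), and ganglion cells, with at least 3 Isl1 UMIs and no Otx2 or Ptf1a, were 24.9% and 15.7% (ratio 1.59, 1.45 to 1.74). Precursors were thus 52.6% of precursors plus Neurog2 positive cells in the albino library (46.5 to 58.7) and 43.4% in the pigmented library (39.3 to 47.7), and 13.9% (11.9 to 16.2) and 20.8% (18.5 to 23.2) of precursors plus ganglion cells. Sorting and dissociation can set such shares.

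Precursors were compared with Neurog2 positive cells within each library, and a gene counted as past the fold where the ratio of (CPM + 5) was beyond 2-fold the same way in both libraries. Among 8766 genes with at least 20 UMIs in each library, 67 were higher in precursors, a background of 0.764%, and 47 were lower, 0.536%. The median log2 ratio over all of them was 0.01 in the albino and 0.03 in the pigmented library. The higher genes were led by Igfbp5, Insm2 and Notch effectors, and the lower ones by proneural factors, Ccnd1 and Sfrp2.

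The Notch effectors stood out. Hes5 stood at 1281 CPM in precursors against 385 CPM in Neurog2 positive cells of the albino library, and at 1398 against 385 CPM in the pigmented library, ratios of 3.33 (3.03 to 3.66) and 3.63 (3.41 to 3.87). Hey1 and Heyl, related repressors, were higher too: 3.94 and 6.76 times as high in the albino and pigmented libraries for Hey1, and 11.6 (3.64 to 59.2) and 8.33 (4.56 to 16.4) times for Heyl, which had 3 UMIs in albino Neurog2 positive cells. Lfng, whose product is a glycosyltransferase that modifies Notch, stood at 87.3 CPM in precursors against 16.5 CPM in Neurog2 positive cells of the albino library and at 126 against 18.5 CPM in the pigmented library. Hes1, the effector most associated with undifferentiated progenitors, did not go with them, at 196 against 309 CPM and 231 against 322 CPM; its pigmented ratio lay above 1 among cells with at least 10 Atoh7 UMIs. The receptor gene Notch1 was at 128 against 101 CPM and 149 against 101 CPM. Of the 14 Notch receptors and targets listed, 13 were measured, 3 were past the fold upwards (Hes5, Hey1 and Lfng) and 0 downwards; their median log2 ratio was 0.26 and 0.32.

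Proneural and delta genes split. Neurod1, a bHLH factor of differentiating neurons, stood at 51.0 CPM in precursors against 238 CPM in Neurog2 positive cells of the albino library and at 48.6 against 314 CPM in the pigmented library. Insm1 was at 25.8 against 103 CPM and 23.0 against 129 CPM, whereas its relative Insm2 was at 168 against 35.7 CPM and 189 against 31.1 CPM, ratios of 4.69 (3.48 to 6.42) and 6.08 (4.95 to 7.53). The 2 Insm genes therefore lay on opposite sides in both libraries. The same was true of 2 growth arrest genes: Gadd45a was at 1537 against 577 CPM and 1635 against 729 CPM, and Gadd45g at 25.1 against 129 CPM and 14.9 against 151 CPM, though the Gadd45a call was lost among cells with at least 10 Atoh7 UMIs. Dll1, a Delta ligand of neurogenic cells, differed little, at 69.2 against 84.7 CPM and 68.2 against 85.2 CPM, while Dll4 was at 3.49 against 11.9 CPM and 2.13 against 20.4 CPM. Of 20 neurogenic and ligand genes 17 were measured, 2 of them higher past the fold and 4 lower.

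Igfbp5, a secreted binding protein of insulin-like growth factors, ranked first among the higher genes. Igfbp5 stood at 534 CPM in precursors against 114 CPM in Neurog2 positive cells of the albino library, and at 629.5 against 127 CPM in the pigmented library, ratios of 4.66 (3.95 to 5.53) and 4.95 (4.46 to 5.50). Sp8, a zinc finger factor, was 5.85 and 8.20 times as high, Rhbdl3, a rhomboid-family gene, 5.35 and 6.52 times, Susd6 3.28 and 3.37 times, Plekhh2 4.31 and 3.60 times and Ankrd2, which had 6 and 7 UMIs in the Neurog2 positive cells, 8.80 and 30.7 times. Gfod2 was 6.97 and 4.81 times as high, but 1 cell held 40.8% of its albino and 1 cell 27.3% of its pigmented precursor UMIs.

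Of the progenitor genes, Ccnd1 and Sfrp2 were lower past the fold. Ccnd1 stood at 513 CPM in precursors against 1606 CPM in Neurog2 positive cells of the albino library, and at 479 against 1508 CPM in the pigmented library, a ratio of 0.320 (0.294 to 0.347) and 0.318 (0.298 to 0.339). Sfrp2, a secreted Wnt inhibitor of progenitors, was at 484 against 1589.7 CPM and 458 against 1336 CPM. Of 18 measured progenitor genes these 2 were past the fold and 13 were below 0 in both libraries, with medians of -0.49 and -0.41; among cells with at least 10 Atoh7 UMIs 1 of 18 was past it, 9 were below 0 in both and the medians were -0.19 and 0.0045. Aldh1a3 and Cyp26a1, which make and degrade retinoic acid, were 0.20 and 0.164 times and 0.242 and 0.170 times the Neurog2 positive level. The other genes named for the lowest ratios were Hadh, of fatty acid oxidation (0.246 and 0.307), the matrix protein gene Sparc (0.315 and 0.311), the copper carrier gene Cp (0.300 and 0.233) and the actin bundler gene Espn (0.108 and 0.211).

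Neuronal genes were modestly higher. Tubb3, the neuronal beta tubulin, stood at 875 CPM in precursors against 336 CPM in Neurog2 positive cells of the albino library and at 1022 against 301 CPM in the pigmented library, and Stmn2 at 277 against 113 CPM and 364 against 75 CPM. Of 21 measured axon and cytoskeleton genes, 6 were past the fold upwards, 0 downwards and 19 above 0 in both libraries. Pou4f2, a ganglion cell factor, was at 27.9 against 7.94 CPM and 44.8 against 8.04 CPM, and Pou4f1 at 6.29 against 1.99 CPM and 4.69 against 0.804 CPM. Ganglion cell factors had 2 of 12 measured members past the fold upwards and 0 downwards.

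The Atoh7 level itself differed between these classes, at 8130.0 against 2575 CPM and 7598 against 3137 CPM, so the comparison was repeated among cells with at least 10 Atoh7 UMIs, a choice made after seeing those levels. It held 126 precursors and 67 Neurog2 positive cells in the albino library and 227 and 176 in the pigmented library, with 8484 against 4969 CPM and 7899 against 5665 CPM of Atoh7. The counts past the fold were 21 higher (0.268% of 7822 genes) and 14 lower (0.179%), of which 19 and 12 were among the 67 and 47. Hes5 stayed past the fold at 2.49 and 3.05 times, Lfng at 3.99 and 5.89, Insm2 at 2.45 and 3.45, Igfbp5 at 2.51 and 2.88, and on the lower side Neurod1 at 0.134 and 0.110, and Ccnd1 at 0.282 and 0.352. Among the genes named above, Gadd45a (1.48 and 1.34 times), Tubb3 (1.46 and 1.93), Stmn2, Pou4f2, Sfrp2, Sparc, Cyp26a1, Espn and Aldh1a3 were no longer past it. Hes1 was 0.919 times as high in the albino (0.745 to 1.14) and 1.27 times in the pigmented library (1.11 to 1.45), so its pigmented direction turned. Btg2 was at 0.966 (0.850 to 1.10) and 0.838 (0.764 to 0.919), so its pigmented direction turned and its albino interval spanned 1. The ratio of Aldh1a3 was 1.89 in the albino and 0.203 in the pigmented library. No axon and cytoskeleton gene and no ganglion cell factor was past the fold among these cells (0 of 19 and 0 of 12 measured).

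**Figure D3:**
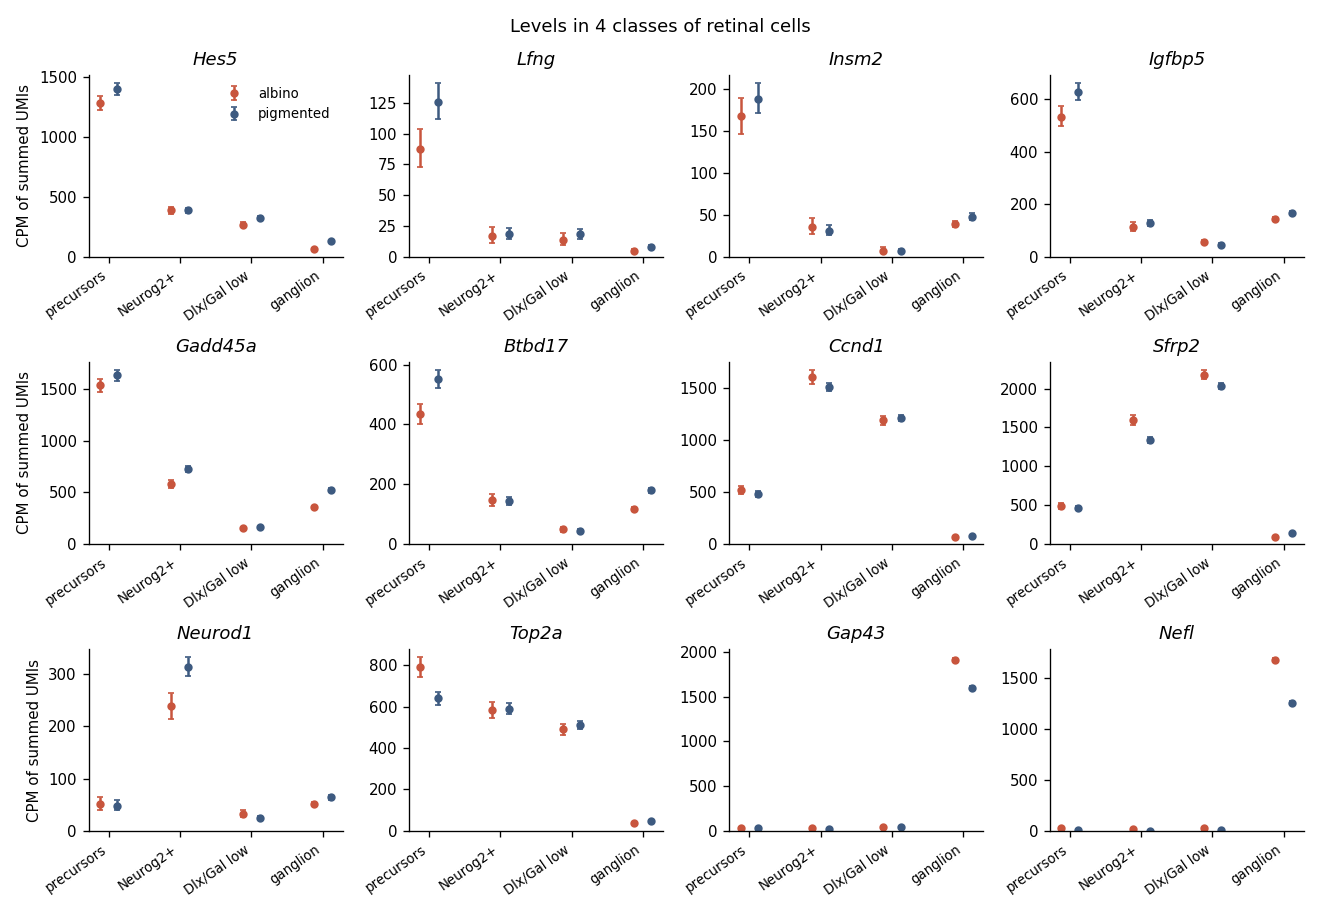
Level of 12 genes (CPM of summed UMIs, axes from 0, with exact 95% counting intervals) in precursors, Neurog2 positive cells, Dlx and Gal low cells and ganglion cells, for the albino library (red) and the pigmented library (blue). Hes5, Lfng, Insm2, Igfbp5, Gadd45a, Btbd17 and Top2a are highest in precursors of both libraries, Ccnd1 in Neurog2 positive cells at 1606 and 1508 CPM, Sfrp2 in Dlx and Gal low cells, and Gap43 and Nefl in ganglion cells.

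The second comparison was with Dlx and Gal low cells, which passed every gate of the precursors except that they had 0 or 1 UMI of Dlx1, Dlx2 and Gal. There were 253 such cells in the albino and 473 in the pigmented library. Of 9681 measured genes 173 were higher in precursors past the fold (1.79%) and 166 were lower (1.71%). The higher genes included Insm2 and Gadd45a, and the lower ones included progenitor genes and genes of macrophages.

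Gadd45a stood at 1537 CPM in precursors against 151 CPM in Dlx and Gal low cells of the albino library, and at 1635 against 165 CPM in the pigmented library, ratios of 10.2 (9.13 to 11.3) and 9.94 (9.22 to 10.7). Phlda1, a pleckstrin homology gene, was 11.8 and 11.4 times as high, Eya2, a transcriptional coactivator and phosphatase, 11.2 and 11.9 times, Btbd17 9.02 and 12.8 times, Rassf4, a Ras association domain gene, 8.0 and 11.3 times, and Edil3, a secreted integrin ligand, 14.9 and 20.2 times. Ppp1r14a, a phosphatase inhibitor, and Fam110a were 6.88 and 8.17 times and 6.28 and 7.61 times as high. On the lower side, Sfrp2 stood at 484 CPM in precursors against 2178 CPM in Dlx and Gal low cells of the albino library, and at 458 against 2032 CPM in the pigmented library; Mest, an imprinted gene, was 0.178 and 0.219 times the level of the low cells. Ccn1, of matrix signalling, was 0.0934 and 0.109 times that level, Cp 0.178 and 0.155, Aldh1a3 0.175 and 0.125, and the metallothionein gene Mt1, on 5 and 3 precursor UMIs, 0.0781 (0.0249 to 0.187) and 0.0554 (0.0113 to 0.166). Igfbp5 was 9.77 and 14.3 times as high in precursors, Insm2 23.3 and 30.4 times and Sp8 28.1 and 113 times. Igfbp5 was no longer past the fold among cells with at least 10 Atoh7 UMIs, which are compared below. Neurogenic and ligand genes had 8 of 16 measured members higher past the fold and 1 lower, ganglion cell factors 9 of 13 higher, and ciliary margin genes 6 of 9 lower. With at least 10 Atoh7 UMIs per cell, neurogenic and ligand genes had 1 of 15 measured members higher past the fold and 2 lower. Ganglion cell factors then had 2 of 11 higher and 0 lower, and ciliary margin genes 1 of 7 higher and 0 lower.

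Macrophage markers moved with the low class. The complement genes C1qa, C1qb and C1qc and Tyrobp, Fcer1g and Ctss, which mark macrophages, stood at up to 1.40 CPM in precursors against 29.2 to 46.3 CPM in low cells of the albino library and 19.2 to 32.0 CPM in the pigmented library; C1qa, Tyrobp and Ctss were at 0 in the precursors of both. The low cells also carried little Atoh7, 722 and 703 CPM. Only 121 of the 253 albino and 193 of the 473 pigmented low cells held 2 or more Atoh7 UMIs. Among cells with at least 10 Atoh7 UMIs, 126 precursors against 34 low cells in the albino library and 227 against 68 in the pigmented library, 36 genes were higher past the fold (0.506% of 7111) and 10 lower (0.141%), 24 and 4 of them among the earlier ones. Insm2 was then 3.25 and 4.14 times as high, Eya2 2.96 and 2.25, Phlda1 2.61 and 2.23, Edil3 8.67 (2.32 to 72.9, on 2 UMIs in the albino low cells) and 6.09, Pou4f2 3.89 (1.0 to 33.4, also on 2) and 2.76, and Ccnd1 0.343 and 0.350. Gadd45a was 1.73 and 1.45 times as high and Rassf4 1.44 and 1.65, both inside the fold, and the macrophage genes had at most 1 UMI in either class. Of 10 Notch receptors and targets measured among these cells, 0 were past the fold either way (median log2 ratios -0.018 and 0.47).

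Against ganglion cells the precursors differed most. Of 11674 measured genes 615 were higher in precursors past the fold (5.27%) and 800 lower (6.85%). Higher genes were those of division and of Notch, and lower genes those of axons and of ganglion cell identity. Top2a, the topoisomerase of dividing cells, stood at 789 CPM in precursors against 40.6 CPM in ganglion cells of the albino library and at 639 against 48.5 CPM in the pigmented library, and Hes5 was 19.6 and 11 times as high. The linker histone gene Hist1h1b was 31.8 and 14.6 times as high, Id1, an inhibitor of bHLH factors, 14.1 and 12.9 times, Rrm2, a subunit of ribonucleotide reductase, 20.1 and 12 times, and Nusap1, Pbk, Ccna2 and Lockd between 11.1 and 18.5 times. Counts of near-identical histone copies such as Hist1h2ap (19.0 and 12.5 times) and Hist1h2ae (21.2 and 12.4 times) may be split between copies.

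The lower genes had few UMIs in precursors. Nefl, the light neurofilament gene, was at 28.6 CPM in precursors against 1671 CPM in ganglion cells of the albino library and at 14.1 against 1253 CPM in the pigmented library, and Gap43 at 36.3 against 1909.7 CPM and 32.4 against 1599.6 CPM. In mesenchyme cells, Gap43 was at 217 and 183 CPM and Nefl at 122 and 75.9 CPM, above their precursor levels. Nefm, Ina, Dcx, Mapt, Islr2 and Nrn1, all of growing axons, the somatostatin gene Sst, the factor gene Ebf3 and Crabp1, a retinoic acid binding protein, were among the genes named for the lowest ratios, their precursor to ganglion cell ratios at most 0.0367, though Nrn1 rests on 2 and 1 precursor UMIs. All 25 measured axon and cytoskeleton genes were lower past the fold, as were 16 of 22 ganglion cell factors and 10 of 16 neuronal RNA-binding genes. Of the division lists, 20 of 20 G2/M genes and 17 of 18 S phase genes were higher past the fold, and 13 of 18 progenitor genes were higher and 1 lower.

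Sox11 was near the ganglion cell level, several other genes lay above it and Elavl3 lay below. Sox11 was at 1141 CPM in precursors against 1485 CPM in ganglion cells of the albino library and at 1209.6 against 1417 CPM in the pigmented library, with 584 and 621 CPM in Neurog2 positive cells. Rassf4, Btbd17, Insm2, Igfbp5 and Eya2 were higher in precursors than in ganglion cells of both libraries, Btbd17 for example at 434 against 116 CPM and 551 against 178 CPM. Elavl3, a neuronal RNA-binding gene, was at 132 against 517 CPM and 155 against 554 CPM.

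**Figure D4:**
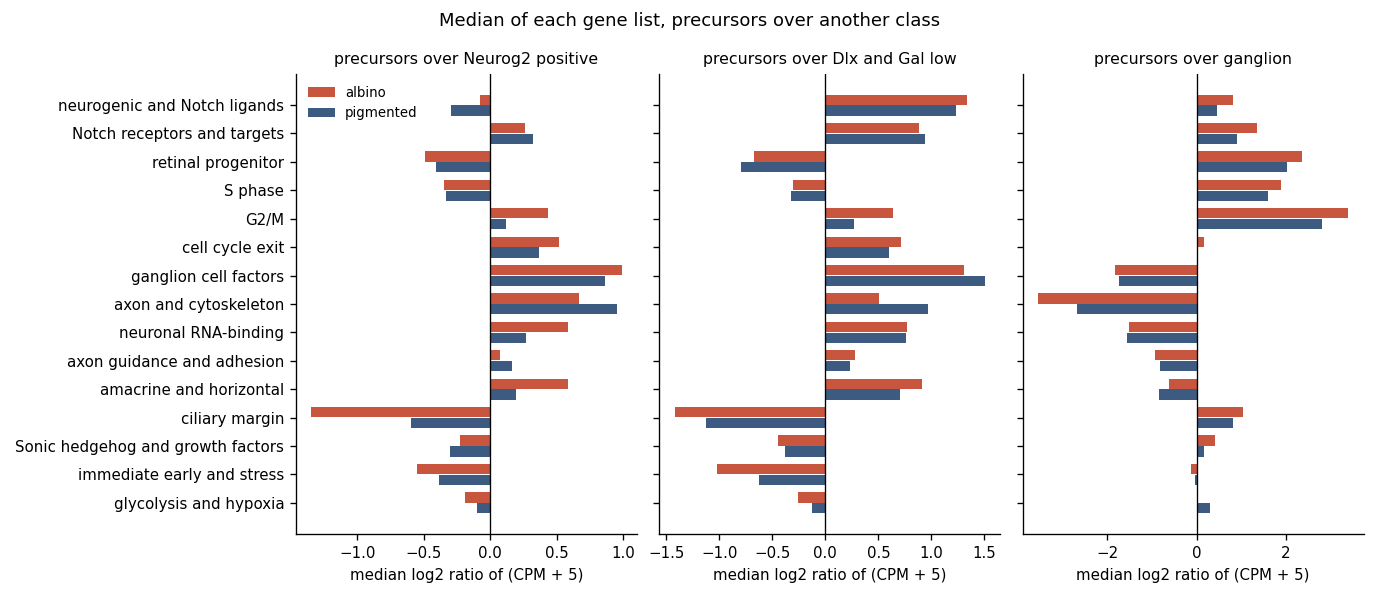
Median log2 ratio of (CPM + 5) of each gene list with at least 7 measured members, precursors over Neurog2 positive cells (left), Dlx and Gal low cells (middle) and ganglion cells (right), in the albino library (red) and the pigmented library (blue). The axon and cytoskeleton median is 0.67 and 0.95 on the left and -3.54 and -2.66 on the right, and the G2/M median is above 0 in every panel.

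Many precursors carried RNA of division genes, and fewer of them than of Neurog2 positive and of Dlx and Gal low cells carried much RNA of S phase genes. Thinned to 5000 UMIs per cell, 61.0% of 123 albino precursors (51.8 to 69.6) and 48.2% of 220 pigmented precursors (41.4 to 55.0) held 10 or more UMIs of the 20 G2/M genes, against 50.8% and 52.0% of Neurog2 positive cells, 48.6% and 53.4% of Dlx and Gal low cells, 3.14% and 4.66% of ganglion cells and 27.3% and 32.4% of mesenchyme cells, which divide. The median precursor had 20 and 8 such UMIs, against 11 and 11 in Neurog2 positive cells and 8 and 11 in Dlx and Gal low cells, so the precursors were above both in the albino library and below both in the pigmented library. For the 18 S phase genes the shares were 35% (26.6 to 44.1) and 27.3% (21.5 to 33.7) of precursors against 53.3% (44.0 to 62.5) and 52.3% (46.5 to 58.1) of Neurog2 positive cells and 48.6% and 48.7% of Dlx and Gal low cells. Fewer precursors than Neurog2 positive cells thus reached the S phase mark in each library, and the intervals touch in the albino library and are apart in the pigmented library. Cells under 5000 UMIs were left out, 19 albino and 22 pigmented precursors and 8 and 13 Neurog2 positive cells. Over the unthinned sums, S phase genes stood at 1945 CPM in precursors against 2275 CPM in Neurog2 positive cells of the albino library and at 1770.0 against 2179 CPM in the pigmented library, with 0 of 18 past the fold and 14 below 0 in both. Among cells with at least 10 Atoh7 UMIs all 18 were below 0 in both libraries, with medians of -0.38 and -0.41.

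Cell cycle exit genes leaned upwards, with members both ways. Of 14 listed genes 13 were measured against Neurog2 positive cells, 1 of them higher past the fold, Gadd45a, and 1 lower, Gadd45g. In both libraries 9 were above 0 and 3 below, with medians of 0.52 and 0.37. Among cells with at least 10 Atoh7 UMIs 0 were higher past the fold and 1 was lower. There 7 were above 0 in both libraries and 5 below, with medians of 0.22 and 0.20. Cdkn1c, an inhibitor of cyclin-dependent kinases that acts at exit, was at 126 CPM in precursors against 179 CPM in Neurog2 positive cells of the albino library and at 138 against 201 CPM in the pigmented library. Cdkn1b was at 67.1 against 78.1 CPM and 63.6 against 65.6 CPM. Btg2, an antiproliferative gene of neurogenic divisions, was at 462 against 322 CPM and 383 against 352 CPM. Among the cells rich in Atoh7 the Btg2 ratio was below 1 in both libraries, though its albino interval spanned 1.

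Other Dlx genes and Dlx targets known from the brain were sparse or not detected. Dlx5 and Dlx6, the linked pair of the same family, had 0 UMIs in the precursors of both libraries, and the antisense gene Dlx1as had 0 UMIs in albino and 15 in pigmented precursors. Gad1, a GABA synthesis gene that Dlx factors activate in the mouse forebrain, had 0 UMIs, and its relative Gad2 was at 15.4 CPM in precursors against 31.8 CPM in ganglion cells of the albino library and at 19.6 against 42.2 CPM in the pigmented library. The galanin receptor genes Galr1, Galr2 and Galr3 had 0 UMIs in the precursors of both libraries. As a one-sided 95% limit, a count of 0 allows up to 3 counts in each sum of 1431607 and 2344575 UMIs.

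Markers of several other cell types were low. The 14 listed genes of blood, endothelium and macrophages summed to 21.7 and 19.6 CPM in albino and pigmented precursors, with 11 and 10 of them at 0, and the 8 pigment cell genes to 2.1 and 0.853 CPM, with 7 and 6 at 0. The mesenchyme list summed to 578 and 681 CPM, of which Igfbp5 was 534 and 629.5 CPM. The photoreceptor precursor list summed to 1849.7 and 1801 CPM in precursors, against 1247 and 1401 CPM in all other kept cells, of which Rorb, a nuclear receptor gene found across these classes, was 1727 and 1689 CPM against 949 and 1031 CPM. Crx, which defines photoreceptor precursors, was at 0 and 0.427 CPM, and Tfap2b, of amacrine and horizontal cells, at 2.79 and 0.853 CPM. The amacrine and horizontal list summed to 435 and 383 CPM, against 584 and 561 CPM in all other kept cells. Against Dlx and Gal low cells 3 of its 8 measured genes were higher past the fold and 0 lower. With at least 10 Atoh7 UMIs per cell 0 of 6 measured were past it. Of the 4 markers fixed for these cells the rule used Dlx1, Dlx2 and Gal; the fourth, Insm2, was detected in 44.7% and 54.5% of cells thinned to 5000 UMIs, against 1.01% and 1.18% of mesenchyme cells, well above that background.

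Of the lists not yet given against Neurog2 positive cells, neuronal RNA-binding and ciliary margin genes had more than 1 member past the fold. The former had 3 higher and 0 lower of 12 measured (medians 0.59 and 0.26). The latter had 0 higher and 2 lower of 9 measured (medians -1.35 and -0.60). Neither list had a member past the fold among cells with at least 10 Atoh7 UMIs. The rest had at most 1 member past the fold in a direction. Of these, axon guidance and adhesion genes had 1 higher and 1 lower past the fold of 16 measured (medians 0.07 and 0.16), and glycolysis and hypoxia genes had 0 higher and 0 lower past the fold of 15 measured (medians -0.19 and -0.10). Sonic hedgehog and growth factors genes had 0 higher and 0 lower past the fold of 10 measured (medians -0.23 and -0.30), immediate early and stress genes had 0 higher and 1 lower past the fold of 8 measured (medians -0.55 and -0.39), and amacrine and horizontal genes had 0 higher and 0 lower past the fold of 7 measured (medians 0.58 and 0.19).

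Between albino and pigmented precursors few genes passed the fold. Among the 6867 genes that had 50 or more UMIs in the libraries together, 80 were higher in albino precursors by more than 1.5-fold (1.16%) and 147 lower (2.14%). Single cells made several of the widest ratios. One albino cell held 64.4% of the albino Dnajc11 UMIs (ratio 2.54), 79.1% of those of Slc25a20 (3.06) or 54.5% of those of Pomc (2.25), and one pigmented cell 77.9% of the pigmented Atpaf2 UMIs (0.261), 78.9% of Dqx1 (0.307) or 98.2% of Ptcra (0.234). Without the top cell of each gene, a choice made after seeing these shares, the log2 ratios of Dnajc11, Slc25a20, Atpaf2, Dqx1 and Ptcra changed sign.

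G2/M genes leaned one way. S phase genes did so less, with 12 of 18 above 0, 6 below and a median log2 ratio of 0.11. The 20 G2/M genes summed to 4969.9 CPM in albino and 4126 CPM in pigmented precursors, a ratio of 1.20 (1.17 to 1.24), and 20 of 20 were above 1. In all other kept cells the ratio was 0.873 (0.866 to 0.879), with 1 above 1 and 19 below, in Neurog2 positive cells 0.960 and in ganglion cells 0.802. The intervals of these sums do not cover the spread between cells. Per cell, the shares of precursors with 10 or more thinned G2/M UMIs, 61.0% and 48.2%, have intervals that overlap. When membership was set on thinned counts the G2/M median was -0.07 in place of 0.26 (log2). Kif11, a mitotic kinesin, was at 118 CPM in albino and 73.8 CPM in pigmented precursors, the largest ratio of the list at 1.6 (1.29 to 1.99), and the histone gene Hist1h2ap was at 995 and 551 CPM (1.81, 1.67 to 1.95). Replication-dependent histone symbols, grouped after their values were seen, gave a ratio of 1.41 (1.37 to 1.45) in precursors, against 1.16 (1.12 to 1.19) in Neurog2 positive cells, where 26 of 37 were above 1, and 0.927 in all other kept cells together.

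**Figure D5:**
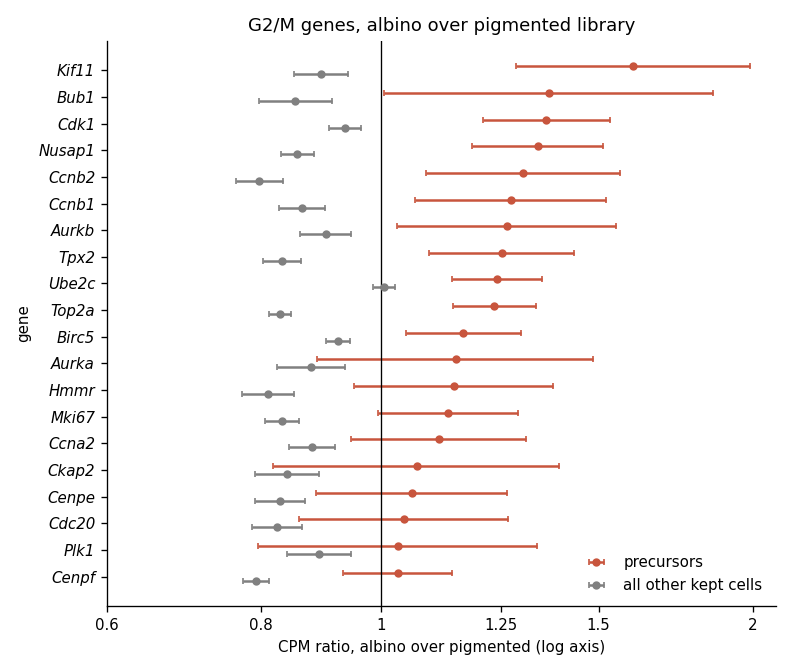
Ratio of CPM, albino over pigmented (horizontal, log axis), for each of 20 G2/M genes in precursors (red) and in all other kept cells (grey), with exact 95% counting intervals that do not cover variation between cells. All red points lie above 1, from Cenpf at 1.03 to Kif11 at 1.6, and 19 of the grey points lie below 1.

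Ccnd2, Zic2 and Junb were among the genes lower in albino precursors. Ccnd2, the D-type cyclin of the ciliary margin, was at 6.29 CPM in albino and 20.05 CPM in pigmented precursors, a ratio of 0.314 (0.135 to 0.647) on 9 and 47 UMIs, against 0.618 (0.590 to 0.647) in the other kept cells; 1 pigmented cell held 34.0% of the pigmented UMIs. Zic2, a zinc finger factor of the ciliary margin and of ganglion cells that project to the same side, was at 14.7 and 36.3 CPM, a ratio of 0.405 (0.238 to 0.658) against 0.780 in the other cells. Junb was at 8.38 and 23.5 CPM, and its direction turned when membership was set on thinned counts and when cells with Y-linked UMIs were left out. Aatf, Cpq, Mpv17l2 and Tmx2 had ratios of 0.357, 0.291, 0.391 and 0.474 against 0.881 to 0.944 in the other cells. Nefm was higher, at 34.2 and 13.2 CPM (2.59, 1.62 to 4.20), as it was in the other kept cells (2.1). The sex makeup of the pools differed, and its part in these ratios was not tested beyond leaving out cells with Y-linked UMIs.

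Several genes named above as higher in precursors differed less between libraries. Hes5 was at 1281 CPM in albino and 1398 CPM in pigmented precursors (ratio 0.917, 0.865 to 0.971), Insm2 at 168 and 189 CPM (0.887, 0.755 to 1.04), Lfng at 87.3 and 126 CPM (0.694, 0.558 to 0.858) and Btbd17 at 434 and 551 CPM (0.788, 0.715 to 0.868). The intervals of Hes5, Lfng and Btbd17 lay below 1. Of 10 measured Notch receptors and targets 0 were past 1.5-fold and 8 were below 0, and of 14 neurogenic and ligand genes 1 was higher past it and 0 lower.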

How the data were processed

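Droplet 3′ RNA libraries of 1 albino and 1 pigmented pool were analysed. The values deposited by the authors are raw UMI counts per gene and barcode for 32285 genes, in 3676 albino and 6089 pigmented barcodes, with 46271969 and 69965728 UMIs; no source used here says how barcodes were selected before deposit. Cell Ranger 2.1.1 and build mm10 stand in the submitters' processing notes, and version 5.0.1 in the header of the matrix.

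Barcodes with under 500 genes or over 10% mitochondrial UMIs were left out. Doublets stayed in; Scrublet (Scanpy 1.11.5) was run as an alternative. Class levels are CPM of summed UMIs. A gene was measured against another class with at least 20 UMIs over both classes in each library, and between libraries with at least 50 UMIs in all; ratios are of CPM, and folds of (CPM + 5). Intervals are exact 95% intervals (Poisson for levels, Clopper-Pearson for shares, conditional for ratios), from SciPy 1.17.1, and cover counting error only. Cycle shares and shares of cells with a UMI were computed after thinning each cell to 5000 UMIs. Scripts ran in Python 3.11.15 with NumPy 2.4.6 and pandas 2.3.3 and were tested on simulated data.

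Genes named are the 12 highest and 12 lowest per class comparison, ranked by the smaller of the 2 libraries' log2 ratios among genes with one sign, the 10 highest and 10 lowest between libraries, ranked by the interval bound nearest to 1, and members of the gene lists. Genes of the rule, mitochondrial, ribosomal, haemoglobin and sex genes and unnamed gene models were left out of the ranking, and some genes are not reported here. The members and lists were chosen with earlier results of these data known. The comparisons at 10 or more Atoh7 UMIs, without macrophage cells and without each gene's top cell were added after seeing the data. All cells compared with the precursors were also set apart by the rule's own genes, so no class comparison was tested.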

Additional observations from a re-analysis of the deposited data

Results flagged for a closer look

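Several albino to pigmented ratios of the precursors lay on the other side of 1 from those of all other kept cells; this difference was not tested, since each library is a single pool. The G2/M list had a ratio of 1.20 in precursors and 0.873 in the other cells. Among genes, the ratio was 2.01 in precursors and 0.854 in the other cells for the histone gene Hist1h2bm, 1.63 in precursors and 0.828 in the other cells for Hist1h3e and 1.44 in precursors and 0.874 in the other cells for Hist1h2ae. It was 2.13 in precursors and 0.80 in the other cells for Anln, a gene of cell division. It was 2.03 in precursors and 0.733 in the other cells for Tulp3, of which 1 albino cell held 31.3% of the precursor UMIs. It was 0.307 in precursors and 1.72 in the other cells for Dqx1 and 0.234 in precursors and 2.5 in the other cells for Ptcra, of which 1 pigmented cell held 78.9% and 98.2% of the precursor UMIs.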

How the results depend on the processing

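The ratio of precursor shares, albino over pigmented, ran from 0.930 to 1.07 over the alternatives, inside its interval in the report, with 126 to 172 albino and 63 to 299 pigmented precursors. The 67 higher and 47 lower genes against Neurog2 positive cells became 40 and 27 with at least 2 Atoh7 UMIs, 39 and 11 with membership set on 5000 thinned UMIs, 104 and 100 with a pseudocount of 1 CPM, and 21 and 14 with at least 10 Atoh7 UMIs; the lower count was 72 with CPM computed without mitochondrial, ribosomal protein and haemoglobin genes. Against Dlx and Gal low cells the 173 higher genes became 80 with thinned membership and 36 with at least 10 Atoh7 UMIs. The 166 lower genes became 80 with at least 2 Atoh7 UMIs, 38 with thinned membership, 251 without those gene families, 317 with a pseudocount of 1 CPM and 10 with at least 10 Atoh7 UMIs. Against ganglion cells the 615 and 800 became 924 and 1323 with a pseudocount of 1 CPM. Between libraries the 80 higher genes became 234 in cells with Xist and no Y-linked UMI, 157 with every cell weighted equally, 143 with a pseudocount of 1 CPM, 188 with a lower count minimum and 282 with none. The 147 lower genes became 70 with thinned membership, and 233, 246, 348 and 515 with equal weights, a pseudocount of 1 CPM, the lower minimum and no minimum.

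Some directions turned, on the log2 scale. Against Dlx and Gal low cells, with at least 2 Atoh7 UMIs, at least 10, and macrophage cells left out, C1qb stood at 0.18, 0.0987 and 0.18, Fcer1g at 0.0591, 0.0615 and 0.0314, and C1qc at 0.0951, 0.0987 and 0.0943. Mt1 stood at 0.19 and 0.0527 with at least 2 and 10 Atoh7 UMIs. List medians turned to -0.13 for neurogenic genes and Notch ligands and 0.22 for ciliary margin genes with at least 10 Atoh7 UMIs, and to -0.0677 for neuropeptides with thinned membership. Between libraries, Dnajc11 turned to -0.16 with thinned membership and -0.0664 without its top cell. Without the top cell Slc25a20 turned to -0.26, Atpaf2 to 0.0465, Dqx1 to 0.0895 and Ptcra to 0.52. Ptcra was at 1.10 and Junb at 0.18 in cells with Xist and no Y-linked UMI, and Junb at 0.33 with thinned membership. Leaving out macrophage cells, chosen by C1qa, C1qb, C1qc, Tyrobp and Fcer1g UMIs, kept 250 of 253 albino and 468 of 473 pigmented Dlx and Gal low cells. That alternative and the one without a top cell take such UMIs out by construction. The cause of the other turns was not tested. Of 864 values of named genes in class comparisons 11 were reversed and 391 moved by more than their counting interval, of 240 between libraries 9 and 25. No paired analysis was possible because each group is 1 library, with no replicate numbers and no test. Single pools and few UMIs per gene limit every value here, and genes under the count minimum were not compared.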
